A study of Mus musculus with 6 samples.

Results

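The 9 genes described here mark B cells and the antibody-secreting plasma cells that arise from them: Jchain, Mzb1, Prdm1, Irf4, Tnfrsf17, Cd79a, Cd79b, Ms4a1 and Pou2af1. They were chosen by name with the sham and crush values of these libraries already known, and all 9 were found among the 25755 genes of the table. Bulk RNA came from the whole optic nerve of animals of 1 genotype, Nf1flox/flox; hGFAP-Cre, aged 3 months, 3 after sham surgery (mice 1, 2 and 3) and 3 after optic nerve crush (ON-CR; mice 4, 5 and 6). Crush was done on both nerves at 6 weeks of age, and sham mice had the incision alone. All 6 mice carry the same alleles, in which Cre driven by the human GFAP promoter removes floxed Nf1 from neuroglial progenitors and their descendants. The labels name a single mouse for each library and describe perfused animals. The methods give 2 mice per sample beside the quantitative PCR of optic nerve RNA and state no number for sequencing, so whether a library holds RNA of more than 1 mouse was not settled.

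B cells bind antigen through a membrane antibody that signals through the CD79A and CD79B chains. After activation they can become plasma cells, which shut down much of the B cell programme under PRDM1 and IRF4 and devote themselves to secreting antibody. The J chain joins IgA and IgM monomers into polymers that epithelia can export. Healthy optic nerve, like other central nervous tissue, holds few cells of either kind.

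The values are normalized counts, that is, estimated reads per gene divided by 1 factor per library, and 1 read was worth 0.885 to 1.06. The libraries held 17414589 to 23620019 estimated reads on genes. The myelin and astrocyte genes that define optic nerve were present in every library, and 6 of the 10 fell after ON-CR (limma, adjusted p = 0.0055 for Mobp). Xist, made by female cells, was at 16.7, 2.14 and 30.9 in sham and at 2708, 6357 and 6131 in ON-CR, in the order of the mouse numbers. Ddx3y, on the Y chromosome, was at 1645, 1291 and 1544 in sham and at 976, 4.19 and 0 in ON-CR. The groups therefore differed in sex-linked RNA as well as in surgery, and their shares in any difference between groups cannot be told apart. ON-CR mouse 4 held both transcripts.

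Promoters were read from RefSeq for 6 of the 9 genes (Jchain, Cd79a, Pou2af1, Prdm1, Irf4 and Tnfrsf17). Entries for Mzb1, Cd79b and Ms4a1 were not used. The promoters of Jchain, Cd79a and Pou2af1 are shown because these genes stand for the secreted antibody, the antigen receptor and the coactivator of antibody transcription. Each run is the 250 bases before the start site in GRCm38.p6, 5′ to 3′ on the gene's strand: Jchain at chr5:88527898-88528147 on the minus strand, Cd79a at chr7:24897247-24897496 on the plus strand and Pou2af1 at chr9:51213440-51213689 on the plus strand. Capitals mark a match with at most 1 mismatch to the octamer ATGCAAAT (ATTTGCAT on the other strand), the element that POU factors bind and at which Pou2af1 assists them.
Jchain: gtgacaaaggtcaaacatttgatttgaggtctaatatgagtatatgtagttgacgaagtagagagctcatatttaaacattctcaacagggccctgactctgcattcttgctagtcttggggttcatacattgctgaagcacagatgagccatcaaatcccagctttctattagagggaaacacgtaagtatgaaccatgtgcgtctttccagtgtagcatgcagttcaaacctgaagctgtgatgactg
Cd79a: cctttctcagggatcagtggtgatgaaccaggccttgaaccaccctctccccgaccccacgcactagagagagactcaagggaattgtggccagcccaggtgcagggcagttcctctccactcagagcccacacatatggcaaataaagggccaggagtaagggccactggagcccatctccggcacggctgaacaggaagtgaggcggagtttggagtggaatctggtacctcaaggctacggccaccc
Pou2af1: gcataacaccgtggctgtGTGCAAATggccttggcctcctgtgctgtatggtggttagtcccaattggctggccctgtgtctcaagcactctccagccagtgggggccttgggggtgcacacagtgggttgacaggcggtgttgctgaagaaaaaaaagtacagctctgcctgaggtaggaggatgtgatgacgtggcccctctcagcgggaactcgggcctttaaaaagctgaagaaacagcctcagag
The exact octamer was in 0 of the 6 promoters over 300 bases around the start, against 1.74% of 32851 mouse promoters of that length. With 1 mismatch allowed it was in 3 of 6 (Pou2af1, Prdm1 and Tnfrsf17), against 18.6% of all. The PU.1 box GAGGAAGT (ACTTCCTC on the other strand) was in 0 of 6 exactly, against 3.20% of all, and in 5 of 6 with 1 mismatch, against 34.8%. The Jchain promoter held 3 CpG and was 42.3% G and C, and the Prdm1 promoter held 20 CpG and was 59.7% G and C. The median promoter held 7 CpG and was 52.7% G and C. These are descriptions of letters in a window, not of binding.

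Jchain, the gene of the joining chain (chromosome 5, 88519809 to 88527891 in GRCm38, 4 exons), had normalized counts of 182.5, 23.0 and 371.9 in the sham libraries of mice 1, 2 and 3. After ON-CR it was at 147.6, 12.6 and 12740 (mice 4, 5 and 6), and all values below follow this order of mice. ON-CR mouse 6 thus stood 34.3 times above the next highest library, a sham one, while ON-CR mouse 5 was the lowest of the 6, and the groups overlapped. Since these are whole-tissue RNAs, more cells of a type and more RNA per cell cannot be told apart.

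Mzb1, an endoplasmic reticulum protein that helps assemble and secrete antibody, was at 13.2, 3.54 and 12.1 in sham. It was at 5.98, 1.53 and 986 in ON-CR. The pattern of Jchain recurred, with mouse 6 at 74.9 times the next highest library and mouse 5 the lowest. The value of mouse 5 rested on 1.5 estimated reads. Mzb1 shares exons on the same strand with SPATA24, so some of its reads may belong to that gene.

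The other plasma cell genes differed far less between libraries. Prdm1, the repressor that drives plasma cell differentiation, was at 20.2, 24.8 and 57.3 in sham and at 30.9, 34.6 and 63.3 in ON-CR. Mouse 6 was the highest by a factor of only 1.11 over sham mouse 3. Irf4, the transcription factor needed for plasma cell formation, was at 11.7, 17.7 and 10.3 in sham and at 6.98, 19.9 and 50.9 in ON-CR. Mouse 6 was 2.55 times above mouse 5, and mouse 4 was the lowest library. Tnfrsf17, which encodes the survival receptor BCMA of plasma cells, was at 9.55, 3.54 and 11.3 in sham and at 9.97, 9.44 and 14.5 in ON-CR. Its highest library exceeded the next by a factor of 1.29, and its 6 values rested on 4 to 14 estimated reads.

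**Figure D1:**
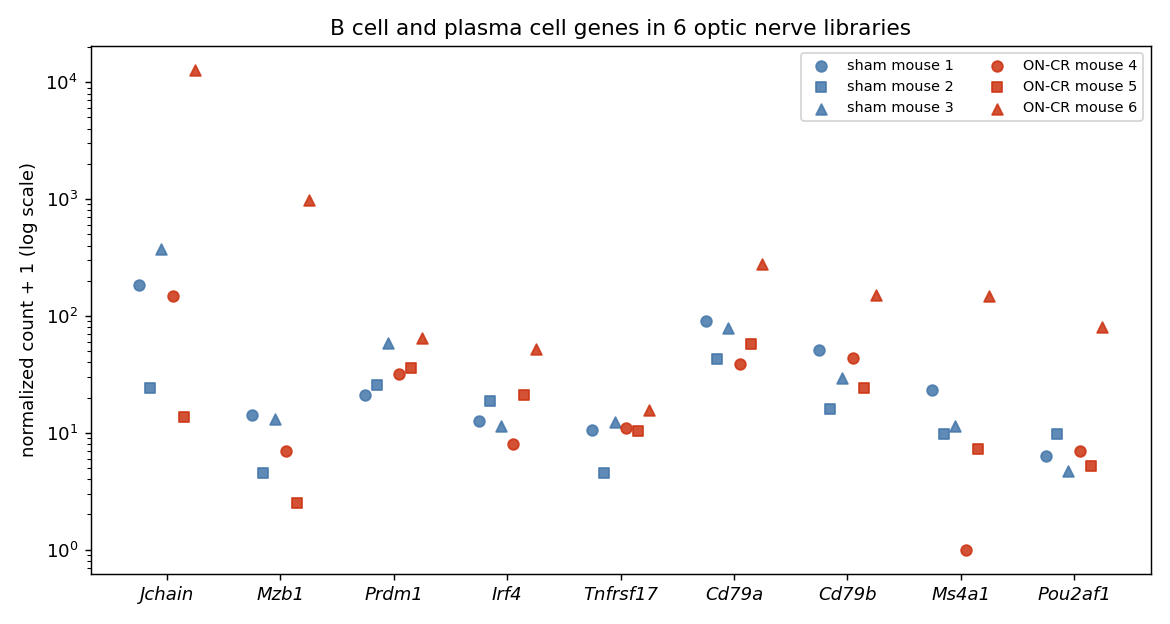
Normalized count plus 1 (log axis) of the 9 B cell and plasma cell genes, with 1 point for each library, blue for sham and red for ON-CR. The red triangle of ON-CR mouse 6 is the highest point of every gene, at 12740 for Jchain and 14.5 for Tnfrsf17, while the other ON-CR libraries lie among or below the sham libraries except for Irf4 in mouse 5.

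Among the B cell genes, Cd79a, the first signalling chain of the antigen receptor, was at 90.2, 41.6 and 78.0 in sham and at 37.9, 56.6 and 279 in ON-CR. Cd79b, its partner chain, was at 49.9, 15.1 and 28.2 in sham and at 42.9, 23.1 and 151 in ON-CR. For both chains mouse 6 was about 3-fold above the next library (3.10 and 3.02 times), and the remaining ON-CR values lay within or below the sham range. Ms4a1, which encodes the surface protein CD20 of B cells, was at 22.3, 8.85 and 10.3 in sham and at 0, 6.29 and 148 in ON-CR. Mouse 4 held 0 reads of Ms4a1, which allows a value of up to 2.99 at 3 reads, and mouse 6 was 6.66 times the next library. Pou2af1, the coactivator named above, was at 5.31, 8.85 and 3.76 in sham and at 5.98, 4.19 and 78.9 in ON-CR. Mouse 6 was 8.91 times the next library, and the other 5 values rested on 4 to 10 estimated reads.

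The values of all 9 genes overlapped between the surgery groups. The genes were selected on this contrast, so the counts of calls that follow are a description, and no p is given for any of the 9. At an adjusted p of 0.05 in limma, 0 of 9 were called higher and 0 of 9 lower. Over all genes, 0.971% were called higher and 1.13% lower. The count at an unadjusted p under 0.05 was also 0 of 9, against 15.6% of all genes, and it was 0 to 2 over the other 15 settings, in none of which a member was called. Every ON-CR value exceeded every sham value for 0 of 9 genes, against 10.5% of all genes. ON-CR mouse 6 was the highest library for 9 of 9, against 20% of all genes, and it was at least 2 times the next library for 7 of 9, against 2.09%. This library was singled out after its values were seen, so nothing is read from those shares. ON-CR mouse 4 lay above the highest sham library for 0 of the 9 genes, and ON-CR mouse 5 for 1, Irf4.

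Fold changes are given on the scale of log2(value + 1), with the standard error (SE) of the fit and 3 mice a group. They were 1.32 (SE 1.97) for Jchain and 1.46 (SE 1.75) for Mzb1. Pou2af1 followed at 1.10 (SE 0.93) and Cd79b at 0.92 (SE 0.64). The other positive values were 0.56 (SE 0.64) for Irf4, 0.53 (SE 0.55) for Tnfrsf17, 0.40 (SE 0.45) for Prdm1 and 0.34 (SE 0.63) for Cd79a. Ms4a1 was negative at −0.42 (SE 1.41), although its arithmetic mean was 51.6 in ON-CR and 13.8 in sham. On the log scale the 0 of mouse 4 pulled the ON-CR mean down more than it did on the linear one. The median of the 9 was 0.56, beside 0.03 over all genes.

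Leaving out ON-CR mouse 6 turned the sign of 5 of the 8 positive values. Jchain moved to −1.39, Mzb1 to −1.17, Cd79a to −0.51, Pou2af1 to −0.15 and Irf4 to −0.11, and Ms4a1 fell further to −2.35. Prdm1, Tnfrsf17 and Cd79b stayed positive at 0.09, 0.35 and 0.18, so 3 genes were above 0 and 6 below it, and the median was −0.15. Without mouse 5, Jchain was at 3.54 and Mzb1 at 3.14 on the same scale. Without mouse 4, Ms4a1 was at 1.26. Leaving out sham mouse 2 put Jchain at 0.17, Mzb1 at 0.93, Cd79b at 0.49, Tnfrsf17 at 0.09 and Cd79a at 0.01. Irf4 and Pou2af1 were higher in that fit, at 0.78 and 1.38. Prdm1 was at 0.11 without sham mouse 1 and at 0.84 without sham mouse 3, where Jchain was at 2.15. With all mice, sample quality weights put Jchain at 2.17.

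**Figure D2:**
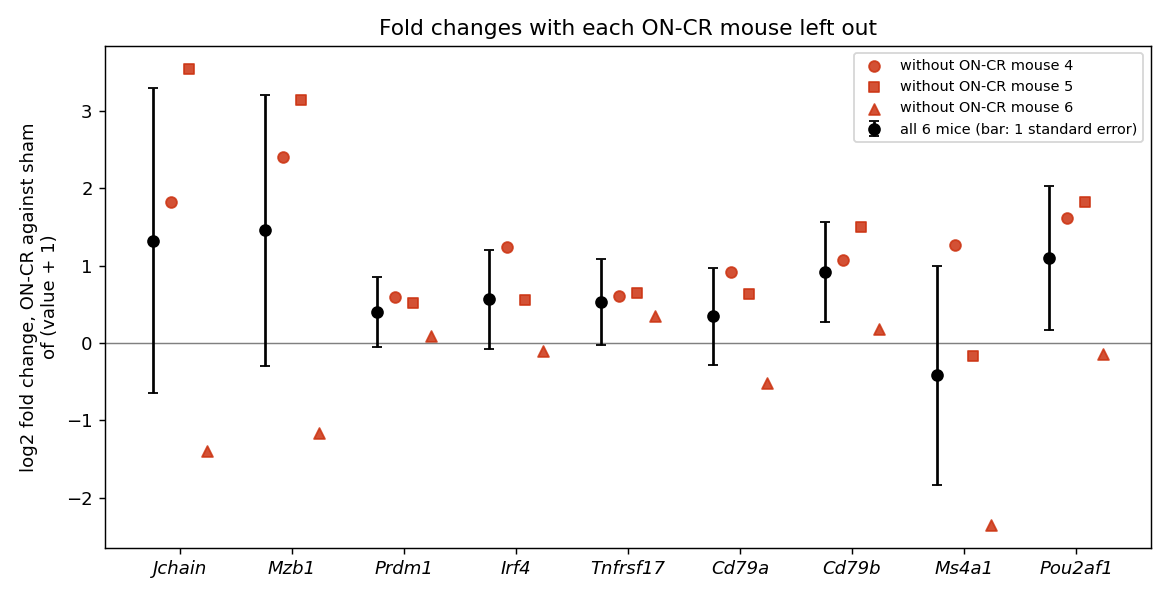
Log2 fold change of value plus 1, ON-CR against sham, for the 9 genes: black points with bars of 1 standard error use all 6 mice, and red symbols leave out 1 ON-CR mouse each. Leaving out mouse 6 (triangles) takes Jchain from 1.32 to −1.39 and leaves Prdm1, Tnfrsf17 and Cd79b above 0.

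The antibody genes were highest in the same library, with exceptions for IgM and IgD. Igha, the constant region of IgA, was at 278, 27.5 and 588 in sham and at 178.5, 13.6 and 21450 in ON-CR. Its order over the 6 libraries was that of Jchain, and the ratio of Igha to Jchain stayed between 1.08 and 1.68 while Jchain itself ranged from 12.6 to 12740. Igkc, the kappa light chain, was at 845, 187 and 1602 in sham and at 785, 48.2 and 83710 in ON-CR, again in that order. Ighm, the IgM heavy chain that naive B cells carry, was at 715, 454 and 325 in sham and at 416, 244 and 609.5 in ON-CR. For Ighm mouse 6 was not the highest library.

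Antibody classes also differed between libraries. Igha made up 77.0% of the heavy-chain constant counts in mouse 6 and Ighm 2.19%. In the other 5 libraries Ighm made up 33.6% to 92.5% and Igha 5.16% to 60.7%. Ighg2c was at 4081 in mouse 6 and at 0 to 30.5 elsewhere, and Ighg2b was at 1602 and 0 to 16.9. Ighg1 reached 60.5 in mouse 6 and Ighg3 43.6, while Ighd, at 15.6, was below the 32.8 of sham mouse 2. The lambda constant genes Iglc1, Iglc2 and Iglc3 were at 94.5, 98.6 and 63.3 there. All 114 immunoglobulin genes of the table together took 0.877% of the normalized counts of mouse 6, and 0.00175% to 0.0179% of the other libraries. Variable and constant genes resemble one another, and how the counting divided reads between them was not tested.

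**Figure D3:**
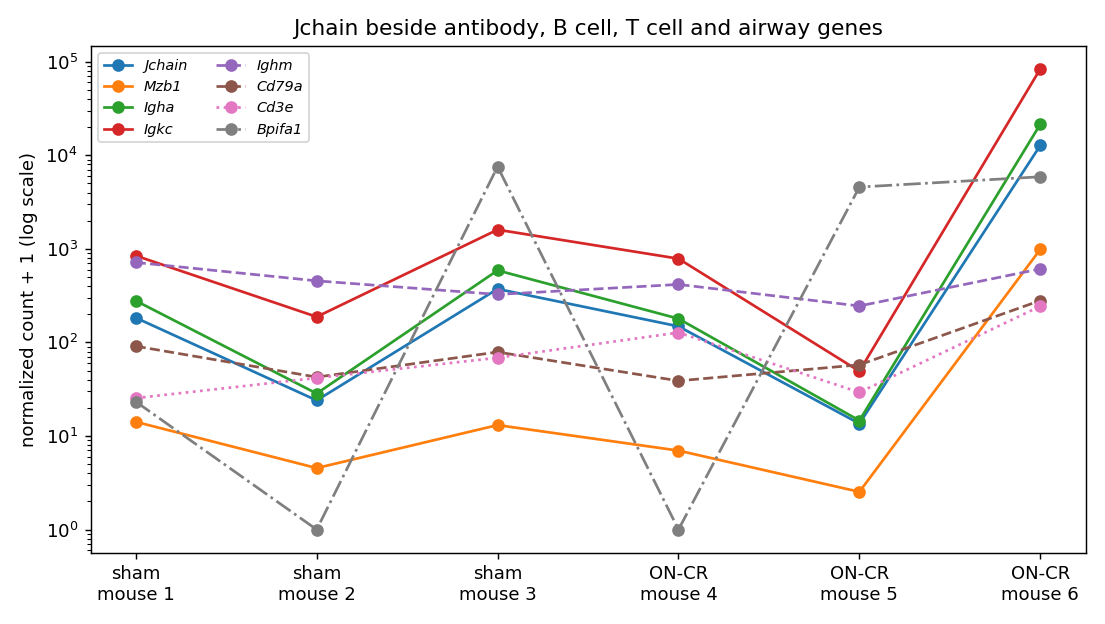
Normalized count plus 1 (log axis) in each of the 6 libraries for Jchain, Mzb1, the antibody genes Igha, Igkc and Ighm, the B cell gene Cd79a, the T cell gene Cd3e and the airway gene Bpifa1; lines join the values of 1 gene and are not a time course. Igha and Igkc follow Jchain across all 6 libraries, Ighm stays between 244 and 715, and Bpifa1 is high in sham mouse 3 and ON-CR mice 5 and 6.

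Per kilobase of exon, which lets genes be set side by side, the order within sham was Jchain, Cd79a, Cd79b, Tnfrsf17, Mzb1, Prdm1, Irf4, Pou2af1 and Ms4a1. The mean levels per kilobase in sham were 76.5 for Jchain, 48.0 for Cd79a and 21.7 for Cd79b, and they were 9.96 or less for the rest. Jchain and Cd79a are neighbours that did not differ beyond their spread, since Jchain was at 72.5, 9.15 and 148 per kilobase in sham and Cd79a at 61.9, 28.6 and 53.5. In sham mouse 2 and ON-CR mouse 5, Cd79a was the first and Jchain held rank 3 and rank 5. In ON-CR mouse 6 the order was headed by Jchain at 5061 and Mzb1 at 812 per kilobase, ahead of Cd79a at 192 and Cd79b at 105. Pou2af1 and Ms4a1 stood at 31.0 and 24 there, and Tnfrsf17, Prdm1 and Irf4 came last at 17.8, 11.4 and 10.4. The ratio of Jchain to Cd79a in counts was 45.6 in mouse 6 and 0.222 to 4.77 in the others.

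Spread within a group was wide for Jchain even among sham mice. The standard deviation of log2(value + 1) was 2.05 in sham, where the median gene had 0.28, and 5.01 in ON-CR, where the median gene had 0.32. The highest sham library held 16.2 times the Jchain count of the lowest, and the highest ON-CR library 1013 times. Mzb1 spread by 0.92 in sham and 4.61 in ON-CR. Prdm1 and Tnfrsf17 instead spread more in sham (0.78 and 0.77) than in ON-CR (0.54 and 0.31).

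By the root mean square distance between centred log2 profiles, over 17388 genes with a mean of at least 20, the genes most like Jchain were Igha at 0.24, Igkc at 0.37, Igkv1-110 at 0.79, Mzb1 at 0.91 and Igkv1-117 at 0.93. Of these 5, Igkv1-110, Mzb1 and Igkv1-117 reached a mean of 20 only through mouse 6, as did 17 of the first 20. Igha, Igkc and Igkv1-135 were the other 3 of the 20. Those most like Cd79b were Igtp at 0.20, Tnfrsf18 at 0.27, Btla at 0.27, Gbp8 at 0.29 and Gm12250 at 0.31. Igtp and Gbp8 encode guanosine triphosphatases induced by interferon-gamma, and Tnfrsf18 and Btla encode receptors found on lymphocytes. Of these 5, 1 (Btla) reached the minimum only through mouse 6. Cd79a held rank 76 for Cd79b. Prdm1 was at rank 2441 for Cd79b, and Ms4a1, Mzb1 and Jchain were near the end of the 17388, at ranks 17193, 17257 and 17329. The distance is not scaled, so a gene with much larger differences between libraries ranks far from Cd79b even where both peak in mouse 6. The standard deviation of log2(value + 1) in ON-CR was 1.35 for Cd79b, 3.64 for Ms4a1, 4.61 for Mzb1 and 5.01 for Jchain. Cd79b itself was at rank 90 for Jchain. The points of each profile are the same 6 libraries.

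Related genes were grouped by role, and their counts are from limma with adjustment over all 25755 genes. Of 17 other surface molecules of B cells, 3 rose and 0 fell, with a median log2 fold change of 0.85. Cd22, an inhibitory lectin, was at 34, 10.6 and 13.2 in sham and at 185.5, 133 and 215 in ON-CR. Its groups did not overlap and its log2 fold change was 3.29 (SE 0.41, adjusted p = 0.00441). Cd180 rose by 2.11 on the log2 scale (SE 0.37, adjusted p = 0.0204) and Cd24a by 0.76 (SE 0.14, adjusted p = 0.0237). Of 14 other lineage factors, 2 rose and 0 fell, with a median of 0.24. They were Irf8, by 1.53 (SE 0.22, adjusted p = 0.00733), and Pou2f2, by 1.11 (SE 0.22, adjusted p = 0.0334). Pax5, the factor that keeps B cell identity, lay between 0 and 6.37 in the 6 libraries. Mouse 6 was the highest library for 4 of the 14 factors and at least 2 times the next for 2, Spib at 23.9 against 3.15 (mouse 5) and Ikzf3 at 91.4 against 36.9 (mouse 4).

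These 5 calls also touch genes of other cells, since microglia and macrophages make Cd22, Cd180 and Irf8. The 10 markers of those cells summed to 14220, 12360 and 11230 in sham and to 20020, 13260 and 20100 in ON-CR, with 0 markers at 0. Of the 10, 2 rose and 0 fell in limma, and 7 had a positive log2 fold change. Negative were Tmem119 at −0.27, with every ON-CR value below every sham value, P2ry12 at −0.35 and Mrc1 at −0.14. Cd68, a lysosomal protein of phagocytes, was at 794, 622 and 617 in sham and at 2650, 1822 and 2654 in ON-CR (limma, adjusted p = 0.00128), and Aif1 was at 635, 486 and 514 and at 1434, 842 and 1653 (adjusted p = 0.026). Neither marker's groups overlapped, as was the case for all 5 called genes, Cd24a and Pou2f2 included. Every ON-CR value exceeded every sham value for 10.5% of all genes. The part of these cells in the calls was not tested. Exons of Cd22, Cd180 and Pou2f2 overlap those of Gm29439, Mast4 and Mir6537, and the counting is not stated to use strand. Without ON-CR mouse 6, 0 of the 5 were called (adjusted p from 0.0709 for Cd22 to 0.192 for Pou2f2), with fewer libraries in the fit. Their log2 fold changes moved little, to 3.14 for Cd22, 1.94 for Cd180, 0.74 for Cd24a, 1.40 for Irf8 and 1.08 for Pou2f2. The related genes called fell to 1 without sham mouse 2 and to 2 without sham mouse 3, and numbered 19 without ON-CR mouse 5.

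In the remaining 4 lists of related genes, limma called no gene. The share of all genes at an unadjusted p under 0.05 was 15.6%, against which the counts at that level are to be read. Of 17 signalling proteins below the antigen receptor, 0 were called, although 13 had an unadjusted p under 0.05 and the median log2 fold change was 0.70. Prkcb, a kinase, and Lyn, which phosphorylates the receptor chains, were the most abundant, with log2 fold changes of 0.35 (adjusted p = 0.195) and 0.62 (adjusted p = 0.0764). Over the 6 libraries Prkcb lay at 861 to 1329 and Lyn at 515 to 975, where Cd79a lay at 37.9 to 279. These signalling genes are not particular to B cells, and which cells made them was not tested. Of 11 other plasma cell markers, 0 were called, 2 had an unadjusted p under 0.05, and the median was 0.19. Cd38, an ectoenzyme, was at 1131 to 1639 in sham and 1238 to 1560 in ON-CR, and Tent5c at 486.5 to 635 and 629 to 707. Mouse 6 was the highest library for 8 of these 11 markers and at least 2 times the next for 4. Those were Slamf7 at 400, Cd28 at 158, Glipr1 at 201 and Ly6k at 31.1 in mouse 6, where the next libraries held 127, 36.6, 88.6 and 11. Of 22 genes for folding and export of antibody, 0 were called, 1 had an unadjusted p under 0.05, and the median was −0.08. Hspa5, the chaperone BiP, was at 10860, 10250 and 10630 in sham and at 9422, 9873 and 9310 in ON-CR, and Hsp90b1 at 9006, 8336 and 8570 and at 8708, 7254 and 8821. Mouse 6 lay within or below the range of the other libraries for both. Over the whole list it was the highest library for 8 of 22 and at least 2 times the next for 1, Derl3, at 66.5 against 27.2. Xbp1, the factor that expands the secretory apparatus of plasma cells, belongs to the 14 lineage factors above, not to this list. Its log2 fold change between the groups was −0.94 (limma, adjusted p = 0.110), and it was lowest in mouse 6, at 635.5. The other values were 1780, 2083 and 1904 in sham and 1587 and 996 in ON-CR mice 4 and 5.

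Of 18 genes for survival and homing, 0 were called, 3 had an unadjusted p under 0.05, and the median was 0.49. Cxcl13, the chemokine that attracts B cells into follicles, was at 456, 279 and 456 in sham and at 1788, 361 and 6149 in ON-CR (adjusted p = 0.233). Mouse 6 again held the highest value, while mouse 5 lay within the sham range. Cxcl12, which retains plasma cells in bone marrow, was at 1741, 1632 and 2384 in sham and at 1632, 1260 and 1571 in ON-CR (adjusted p = 0.329). Pigr, the receptor that carries J chain-bound antibody across epithelium, was at 0, 0 and 5.63 in sham and at 1.00, 19.9 and 0 in ON-CR.

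**Figure D4:**
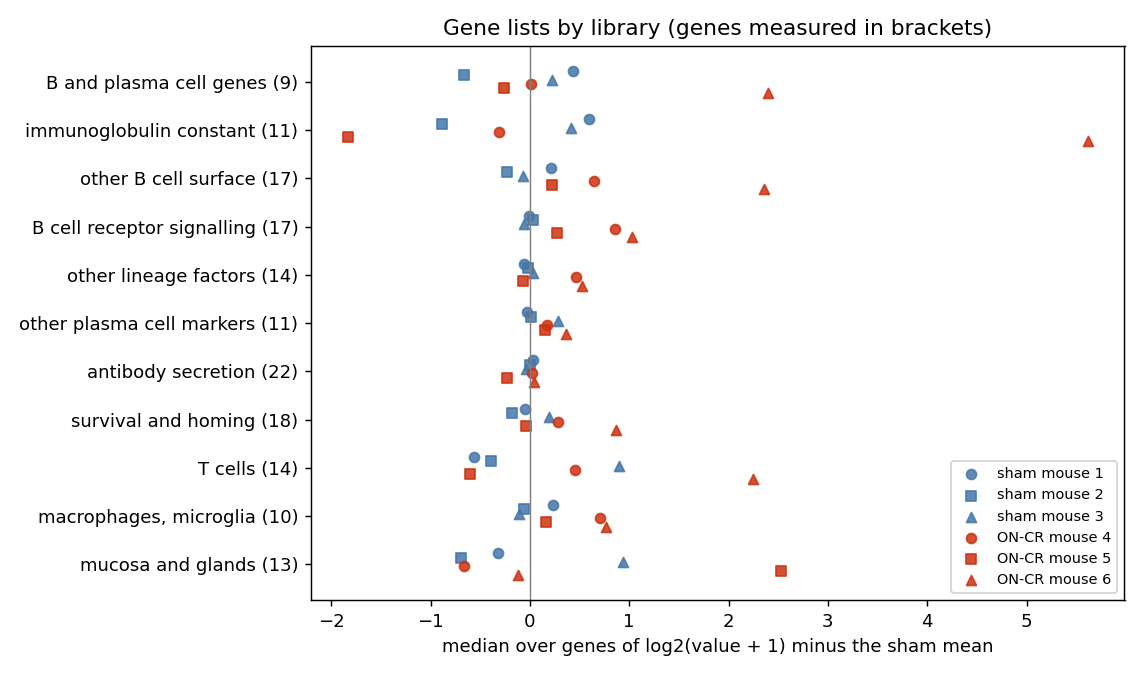
Median over the genes of each list of log2(value + 1) minus the sham mean of the gene, with 1 point for each library, blue for sham and red for ON-CR. ON-CR mouse 6 stands at 2.40 for the 9 B cell and plasma cell genes, 5.61 for the immunoglobulin constant genes and 2.25 for T cells, but at 0.04 for antibody secretion and −0.12 for mucosa and glands.

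Markers of other cells were compared in the same libraries. T cell markers summed to 495, 570 and 1049 in sham and to 898, 566 and 2393 in ON-CR, with 0 of 14 at 0 in any library. Mouse 6 was highest for 13 of the 14. NK cell markers summed to 49.5, 51.4 and 107 in sham and to 95.7, 50.3 and 227 in ON-CR. The marker lists of both lymphocyte types were thus highest in the library in which the B cell and plasma cell genes were highest, and their part was not tested.

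Epithelium of airway, nose and lacrimal gland can hold IgA plasma cells, and its 13 markers summed to 2794, 1804 and 10770 in sham and to 1466, 6819 and 7690 in ON-CR. Most of the sum in the 3 highest libraries was Bpifa1, at 22.3, 0 and 7568 in sham and at 0, 4579 and 5894 in ON-CR. In mouse 6, 2 of the 13 markers were at 0, Muc5b and Pigr, against 4, 4 and 0 in sham and 4 and 0 in the other ON-CR libraries. Bpifb1 was at 0, 1.77 and 117 in sham and at 0, 372 and 108 in ON-CR, and Sec14l3 at 7.43, 0.885 and 129 and at 0.997, 324 and 126. Mouse 6 was the highest library for 0 of the 13, and in limma 0 rose and 1 fell after ON-CR (Cdh1, adjusted p = 0.0498). The epithelial sum was therefore high in sham mouse 3 and ON-CR mouse 5 too, which held 372 and 12.6 of Jchain, and its part in the values of mouse 6 was not tested. Red cell markers summed to 509400, 305800 and 269400 in sham and to 137000, 378100 and 245700 in ON-CR. Mouse 6 did not have the highest red cell sum, and the part of blood in its values was not tested. Neutrophil markers summed to 341, 76.1 and 95.8 in sham and to 171.5, 197 and 287 in ON-CR. Markers of plasmacytoid dendritic cells, mostly Tcf4, summed to 9361, 9815 and 9791 in sham and to 11790, 8888 and 10890 in ON-CR.

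Most markers of lymphoid stroma were also highest in mouse 6, the library singled out after its values were seen. Of 7 markers, 6 were highest there, against 20% of all genes. Mouse 6 was at least 2 times the next library for 2, Cxcl13 and Glycam1, against 2.09% of all genes, and 1.08 times for Clu. The median deviation of the 7 from the sham mean was 1.53 on the log2 scale, beside 0.43 or less in the other libraries. Glycam1 was at 8.49, 16.8 and 11.3 in sham and at 14.0, 17.8 and 58.2 in ON-CR, and Cxcl13, given above, belongs to this list too. The sums, mostly Clu, were 82070, 73790 and 64160 in sham and 72420, 78000 and 94240 in ON-CR. None of the 7 was called (0 in limma, 2 at an unadjusted p under 0.05), and their part was not tested.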

How the data were processed

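Optic nerve RNA of 3 sham and 3 ON-CR mice was compared, grouped by the sample labels. The authors aligned and quantified reads with DRAGEN, used mm10 gene models and applied median normalization in Partek Flow 10.0. The deposited values are this normalized signal per gene, with no strand stated for the counting, and are not raw counts. Reads were estimated by dividing each library by its commonest step. Between 70.0% and 72.0% of values below 100 reads were whole within 0.02, so reads served only for depth and for the floor of 3 reads, which covers counting error alone.

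The fit used limma (version 3.58.1, under R 4.3.3) on log2(value + 1), letting the prior variance follow the mean level. P-values of all 25755 genes were adjusted by Benjamini and Hochberg's method, and a gene was called at 0.05 or less. The fit was tested on simulated data in which all genes shared the same spread setting and no library stood apart. That test does not cover genes with a spread like that of Jchain. The study's own test was a count model, which these values do not allow. Exon lengths and positions were from GENCODE M21 on GRCm38, found for 97.3% of genes, and promoters from RefSeq.

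The 9 genes, the related lists and the marker lists were chosen with earlier results of these data known. Genes named were the 9, the called genes of each related list up to 4 or else the 2 most abundant, immunoglobulin constant genes, the 5 genes nearest in profile to Jchain and to Cd79b, and summed marker lists. Pax5, Xbp1, Cxcl13, Pigr, Bpifa1, Muc5b, Clu, Tcf4, Cd68, Aif1, Bpifb1, Sec14l3, Glycam1, Cdh1, Derl3, Spib, Ikzf3, Igkv1-135, Slamf7, Cd28, Glipr1, Ly6k, Xist and Ddx3y were named after their values were seen, as was the interest in mouse 6. Tmem119, P2ry12 and Mrc1 were also named after their values were seen. Alternatives were pseudocounts of 0.1 and 2, upper-quartile, TMM and library size scaling, a mean value of at least 10, a robust fit, sample quality weights and leaving out each mouse. Sequencing batch is not given in the sources used here. P-values measure the spread between these libraries. Some results for genes are left out of this text.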

Additional observations from a re-analysis of the deposited data

How the results depend on the processing

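None of the 9 genes was called by limma under any of the 15 alternatives. Genes with every ON-CR value above every sham value numbered 0 of 9 with all mice. They numbered 1 without sham mouse 3 (17.2% of all genes), 1 without ON-CR mouse 4 (15.6% of all genes) and 0 without any other single mouse. In the other direction, Ms4a1 without ON-CR mouse 6 was at 0 and 6.29 in ON-CR, below the lowest sham value of 8.85. These values rested on 0, 6 and 10 estimated reads. The share of all genes that separated in this direction is not given here, so nothing is read from it. The median log2 fold change of the 9 genes, 0.56, ranged from −0.15 to 1.24 when 1 mouse was left out and from 0.55 to 0.74 otherwise. It was 0.56 for the 5 plasma cell genes and 0.63 for the 4 B cell genes. Ms4a1 moved from −0.42 to −1.49 with a pseudocount of 0.1. A minimum mean of 10 removed Tnfrsf17.

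Genes called numbered 540, of which 250 were higher and 290 lower. Leaving out 1 mouse gave 67 to 854 in all, 39 to 489 higher and 28 to 365 lower, with the lowest without ON-CR mouse 6 and the highest without ON-CR mouse 5. Higher calls were 421 with library size scaling, 428 when immunoglobulin genes were also left out of the library size, and 388 with sample quality weights. Library size scaling moved the median log2 fold change of all genes from 0.03 to 0.15 and the share of calls that were higher from 46.3% to 68.3%. The median of the 9 genes was 0.68 there. Related genes called, 5 with all mice, numbered 10, 10 and 13 under those 3 settings and 0 to 19 when 1 mouse was left out. The octamer count rose from 0 to 3 promoters with 1 mismatch. Mouse 6 was the highest library for 9 of 9 genes, and at least 2 times the next for 7 of 9, under 4 other scalings chosen after seeing the data. The causes of these shifts were not tested. No paired analysis was possible because sham and ON-CR mice share no replicate numbers. With 3 libraries a group, and values of 0 to 14 reads for several genes, small differences could not be seen at this depth.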
